A study of Mus musculus with 16 samples.

Results

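The B-1 cell genes are 10 genes that mark or regulate B-1 cells: Cd5, Spn, Zbtb32, Bhlhe41, Ctla4, Ahr, Zcwpw1, Ccdc28b, Tppp3 and Ptpn22. They were taken by name from the 34832 gene names on a mouse expression array, with every probe that carried 1 of these names. The 10 genes had 14 probes, and 13 of them, with at least 1 for every gene, were bright enough to be tested. Total RNA of splenic B cells, purified with beads against B220, was measured on 16 single-colour arrays, 8 per genotype. The deficient mice lack the 3'RR, the enhancer cluster downstream of the last immunoglobulin heavy chain constant gene. The labels describe them as carrying the knocked-out 129 IgH allele on a BALBC background and enter their strain as BALBC, while the wild-type mice are entered as strain 129. Genotype and strain entry go together in every sample, so the effect of the deletion and that of the strain cannot be told apart in any comparison here.

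Each of 2 slides carried 4 arrays per genotype. The groups were 3'RR-deficient arrays 9, 10, 11 and 12 and wild-type arrays 2, 5, 6 and 8 on slide 1, and 3'RR-deficient arrays 1, 2, 3 and 4 and wild-type arrays 1, 2, 3 and 5 on slide 2. No treatment or age was given for any group. The series text names 4 mice of each genotype, fewer than the arrays, and the labels tie no array to a mouse. The p-values therefore cover the spread among these arrays only, part of which may be technical.

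B-1 cells are a B cell lineage that is common in the peritoneal and pleural cavities and scarce in the spleen. They renew themselves, secrete natural IgM and respond to polysaccharide antigens without T cell help. Compared with the follicular B-2 cells that make up most splenic B cells, they carry more CD43 and IgM and less B220 and CD23, and the B-1a subset carries CD5. A small set of transcription factors keeps their programme, among them the repressor encoded by Bhlhe41. In such bulk samples, fewer cells of a type and less RNA per cell cannot be told apart, and the B220 selection bears on how many B-1 cells enter the sample.

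Promoter windows of the 3 members with the largest differences on slide 1 are shown because these genes differed together there. Each window is 300 bases across a transcription start in RefSeq on GRCm38.p6, most of it upstream, 5′ to 3′ on the gene's strand. Of the 10 members, 7 had such a window, and the other 3 were Ahr, Ccdc28b and Tppp3. Both strands were searched for 2 motifs: the E-box CACGTG, the letters to which the Bhlhe41 family of repressors is known to bind, and TNGCGTG, the element of the Ahr and Arnt pair. The motifs do not overlap in these windows, and capitals mark a match.
Bhlhe41, chr6:145865371-145865670, minus strand: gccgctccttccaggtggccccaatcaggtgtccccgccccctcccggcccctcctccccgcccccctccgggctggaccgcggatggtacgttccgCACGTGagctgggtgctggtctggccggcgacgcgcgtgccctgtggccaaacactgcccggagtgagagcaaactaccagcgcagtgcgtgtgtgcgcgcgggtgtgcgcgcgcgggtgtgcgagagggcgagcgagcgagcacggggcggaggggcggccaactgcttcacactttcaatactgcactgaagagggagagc
Zbtb32, chr7:30598860-30599159, minus strand: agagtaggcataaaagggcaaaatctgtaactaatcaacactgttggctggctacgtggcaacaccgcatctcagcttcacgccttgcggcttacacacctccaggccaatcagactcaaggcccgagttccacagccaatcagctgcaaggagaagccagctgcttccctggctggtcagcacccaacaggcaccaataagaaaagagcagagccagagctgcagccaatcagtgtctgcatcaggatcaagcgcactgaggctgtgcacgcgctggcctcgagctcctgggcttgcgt
Spn, chr7:127137774-127138073, minus strand: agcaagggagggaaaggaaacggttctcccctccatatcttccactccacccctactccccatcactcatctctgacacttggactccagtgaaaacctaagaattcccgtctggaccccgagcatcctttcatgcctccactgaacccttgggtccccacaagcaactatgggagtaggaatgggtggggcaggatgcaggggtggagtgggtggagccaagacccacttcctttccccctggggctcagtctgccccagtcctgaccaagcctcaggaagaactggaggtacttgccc
The Bhlhe41 window held 1 E-box, which begins at position 98 of the 300 bases. The E-box occurred in 7.15% of the 32851 promoter windows of the mouse table, and among the 7 members with a window it was found in Bhlhe41 alone. TNGCGTG occurred in 5.07% of all windows and in none of the 10 windows of these members. Zbtb32 had a further window, at its other annotated start, which also held neither motif.

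The value given throughout is a level on the log2 scale: the log2 signal of a probe minus the log2 of the 75th percentile of signal on that array. A level of 0 therefore means a signal as bright as the 75th percentile. The 75th percentile ran from 494 to 861 units of processed signal. Levels of different probes are not set against each other, because probes differ in how brightly they hybridise. A difference is always 3'RR-deficient minus wild type unless slides are named, and a probe is said to have risen or fallen where limma's adjusted p, over all 32753 probes tested, was under 0.05.

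The arrays correlated at 0.98 to 0.996 within groups, at 0.968 to 0.985 between genotypes on a slide and at 0.886 to 0.914 between slides. Wild-type array 5 of slide 2 stood somewhat apart, with a 75th percentile of 519 against 771 to 824 on the other wild-type arrays of that slide and an array weight of 0.37 against 2.7 to 3.05. Results on slide 2 are therefore also given without it where it moved them. The deleted element is not a gene, so its known targets were looked at as a check of the labels. All 7 tested probes described as immunoglobulin heavy constant genes fell over both slides, with a median difference of -4.9. The B cell identity genes, among them Cd79a and Pax5, were well above background on arrays of every group, with summed levels of 1640 to 1880 on 3'RR-deficient arrays, against 1500 to 1980 on wild-type arrays of slide 1, and 1170 to 1260, against 1040 to 1220, on slide 2. Over both slides Cd22 alone passed among them, higher, and its call was lost in most fits that left out 1 array.

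Over both slides, 2 of the 10 B-1 cell genes rose, Zbtb32 and Bhlhe41, and 1 fell, Zcwpw1. In probes this was 3 of 13, or 23.1%, against 16.7% of all tested probes, of which 7.71% rose and 8.95% fell. The median difference of the 13 probes was 0.17, against -0.02 over all probes. On slide 1, 5 probes rose and 2 fell (53.8%), against 23.0% of all probes (9.15% higher and 13.9% lower), and the members' median was 0.62 against -0.07. On slide 2 no probe rose and 1 fell (7.69%), against 7.35% of all probes (3.68% higher and 3.67% lower), and the members' median was -0.29 against 0.02. The share called on slide 2 was thus near that of all probes.

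**Figure D1:**
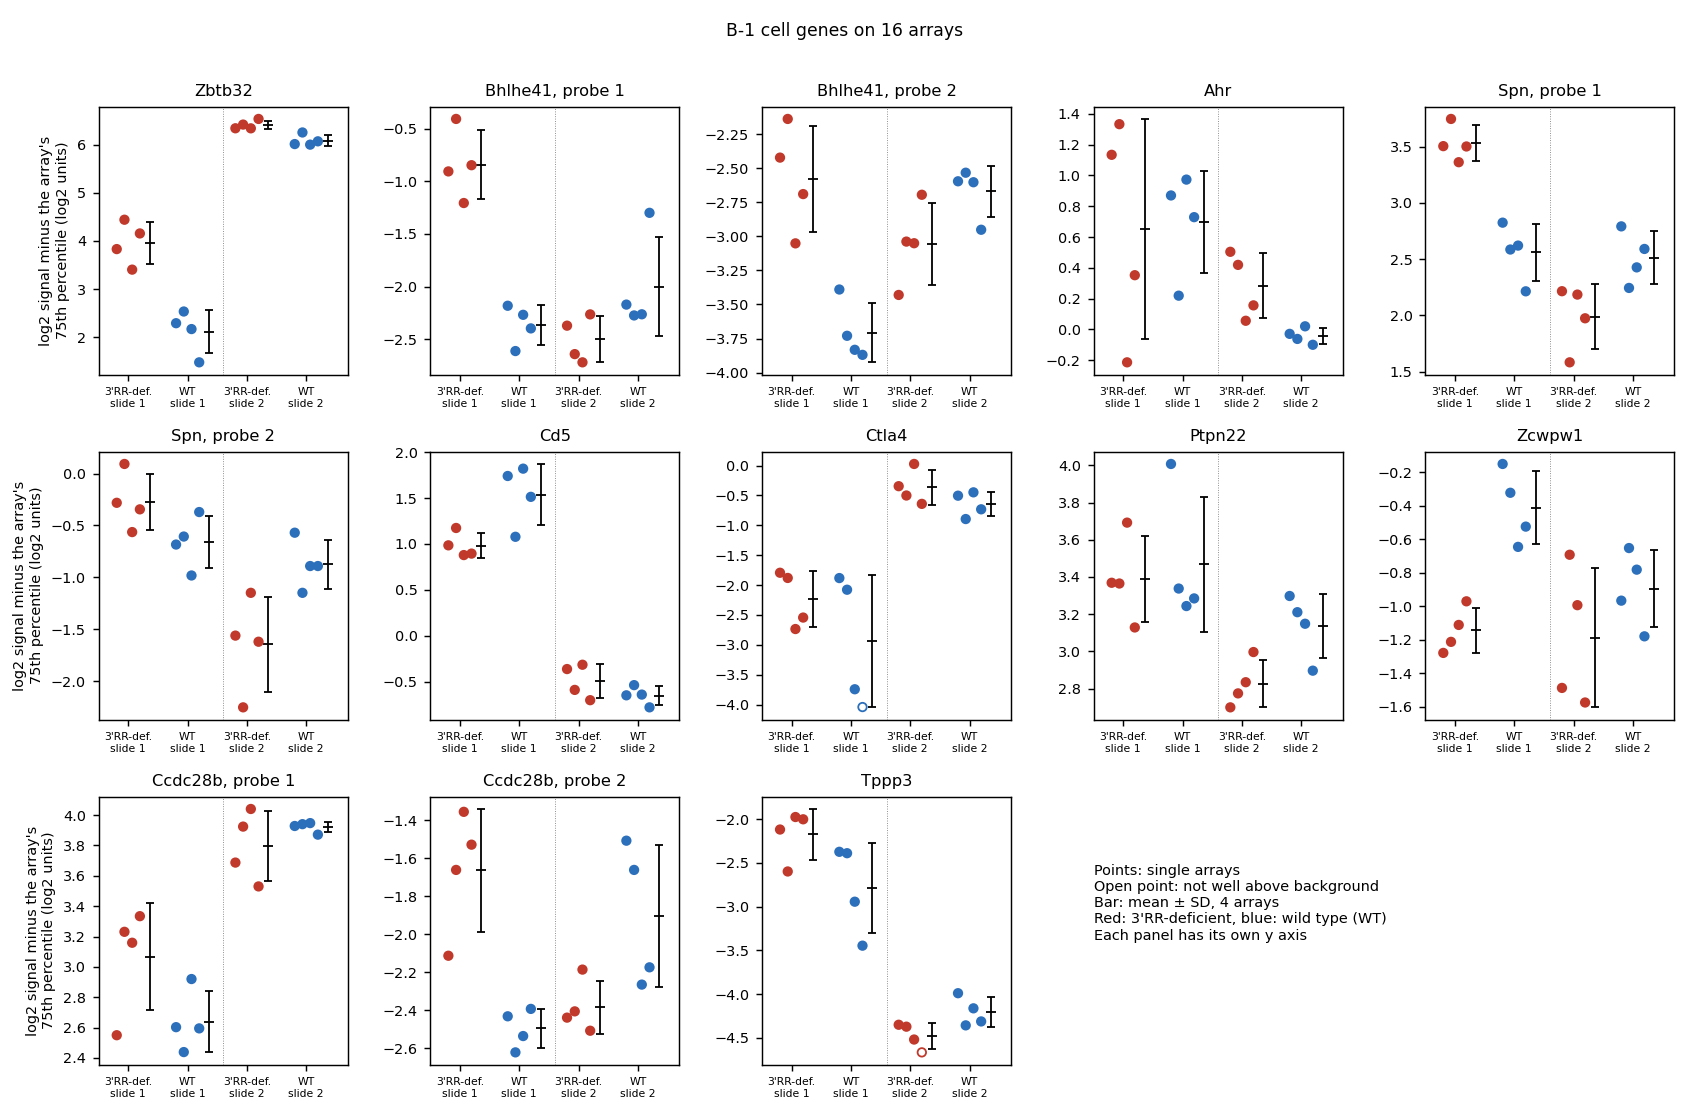
Levels of the 13 tested probes of the B-1 cell genes on each of the 16 arrays, as log2 signal minus the array's 75th percentile on the y axis, by genotype and slide on the x axis, with the mean ± SD of 4 arrays as bars. The 3'RR-deficient arrays of slide 1 lie above all wild-type arrays of that slide for Zbtb32, both Bhlhe41 probes, the first Spn probe and the second Ccdc28b probe, and below them for Zcwpw1.

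Among the transcription factors, Zbtb32 differed most. It encodes a BTB and zinc finger repressor that restrains antibody responses and marks B-1a and memory B cells. Its probe (A_55_P1997509, mm9 chr7:31374702-31374761, minus strand) had levels of 3.83, 4.44, 3.40 and 4.16 on 3'RR-deficient arrays 9 to 12, against 2.29, 2.54, 2.17 and 1.48 on wild-type arrays 2, 5, 6 and 8 of slide 1. Every 3'RR-deficient array lay above every wild-type array. The difference was 1.84 (SE 0.22), a 3.58-fold higher signal, with an adjusted p of 1.04e-04 by limma.

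On slide 2 Zbtb32 was brighter in both genotypes. Its levels were 6.34, 6.42, 6.34 and 6.54 on the 3'RR-deficient arrays, against 6.01, 6.26, 6.00 and 6.07 on the wild-type arrays. The groups again did not overlap, but the difference of 0.32 (SE 0.22) did not pass limma's test (adjusted p 0.444), and with slide 2 fitted alone it did (adjusted p 0.0427). Over both slides the difference was 1.08 (SE 0.16, adjusted p 3.47e-04), higher in 8 of 8 3'RR-deficient arrays than on every wild-type array of their slide. The slide 1 difference exceeded that of slide 2 by 1.52 (SE 0.31, adjusted p 0.0083).

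Bhlhe41 encodes a basic helix-loop-helix repressor, also known for its part in the circadian clock, that mouse B-1a cells need for their upkeep. It had 2 probes, and the sequence of the dimmer one is shown as an example of what was hybridised, with no letters in capitals.
Bhlhe41 A_55_P2133001, mm9 chr6:145812652-145812711, minus strand: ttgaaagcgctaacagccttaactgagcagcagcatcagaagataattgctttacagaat
The brighter probe (A_51_P451176, mm9 chr6:145811275-145811334, minus strand) had levels of -0.91, -0.41, -1.21 and -0.85 on 3'RR-deficient arrays 9 to 12, against -2.18, -2.61, -2.27 and -2.40 on wild-type arrays 2, 5, 6 and 8 of slide 1. The groups did not overlap, and the probe rose by 1.52 (SE 0.22), or 2.87-fold (adjusted p 3.74e-04 by limma). The probe whose sequence is shown rose as well on slide 1, by 1.13 (SE 0.19, adjusted p 0.0014). Its levels were -3.05 to -2.14 on the 3'RR-deficient arrays, against -3.87 to -3.39 on the wild-type arrays.

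On slide 2 both Bhlhe41 probes averaged lower in 3'RR-deficient arrays, and neither passed the test. The brighter probe had levels of -2.37, -2.64, -2.72 and -2.26 on 3'RR-deficient arrays, against -2.17, -2.27, -2.26 and -1.30 on wild-type arrays 1, 2, 3 and 5. Its difference was -0.50 (SE 0.22, adjusted p 0.199), and -0.26 without wild-type array 5 (adjusted p 0.426). That of the other probe was -0.38 (SE 0.19, adjusted p 0.276). Wild-type array 5 had the highest wild-type level for the first probe and the lowest, -2.95, for the second.

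The slides differed for Bhlhe41 by 2.02 (SE 0.31, adjusted p 0.00179) with the brighter probe, by 1.78 with that probe and without wild-type array 5 of slide 2 (adjusted p 0.00113), and by 1.51 (SE 0.27, adjusted p 0.00456) with the other probe. Its call over both slides rests on this pair of unlike differences: the mean difference was 0.51 (SE 0.15, adjusted p 0.0342). The call was lost with the other probe (0.37, adjusted p 0.0796) and in a fit that added slide as a block (adjusted p 0.304). Without wild-type array 5 of slide 2 the brighter probe's difference was 0.63 (adjusted p 0.00328), but 9 of the 16 fits without 1 array lost the call.

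Ahr encodes a ligand-activated transcription factor that pairs with Arnt and induces cytochrome P450 genes. Its brighter probe (A_55_P2109613, mm9 chr12:36182724-36182783, minus strand) had levels of -0.21 to 1.33 on 3'RR-deficient arrays, against 0.22 to 0.97 on wild-type arrays of slide 1. On slide 2 the ranges were 0.06 to 0.50 on 3'RR-deficient arrays, against -0.10 to 0.02 on wild-type arrays, and did not overlap. Neither difference passed limma's test (-0.05, SE 0.27, adjusted p 0.92 on slide 1, and 0.33, SE 0.27, adjusted p 0.556 on slide 2). The other Ahr probe (A_65_P06603, mm9 chr12:36188523-36188582, minus strand) was well above background on 0 of 16 arrays and was not tested.

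Of the 9 genes listed as its partners and targets, 7 were tested, and none passed over both slides in either direction, with a median difference of -0.12. On slide 1, where 23.0% of all probes passed, 2 of the 7 fell, Arnt by 0.24 (adjusted p 0.0247) and Tiparp, a target that limits Ahr activity, by 0.56 (adjusted p 0.00508). Cyp1a1, the best known Ahr target, was well above background on none of the arrays of slide 1 and on 3 of 4 3'RR-deficient and 1 of 4 wild-type arrays of slide 2.

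Among the surface proteins, Spn and Cd5 differed on slide 1 in opposite directions. Spn encodes CD43, a large sialylated glycoprotein found on B-1 cells, plasma cells, T cells and myeloid cells and low on resting follicular B cells. Its brighter probe (A_52_P186033, mm9 chr7:134277313-134277372, minus strand) had levels of 3.51, 3.75, 3.36 and 3.50 on 3'RR-deficient arrays 9 to 12, against 2.83, 2.59, 2.62 and 2.21 on wild-type arrays 2, 5, 6 and 8. The groups did not overlap, and the probe rose by 0.97 (SE 0.17), or 1.96-fold (adjusted p 0.00135).

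On slide 2 the same Spn probe lay the other way. Its levels were 2.21, 1.58, 2.18 and 1.97 on 3'RR-deficient arrays, against 2.79, 2.24, 2.43 and 2.59 on wild-type arrays, and these groups did not overlap either. The difference was -0.53 (SE 0.17, adjusted p 0.0713). The second Spn probe (A_55_P1973573, mm9 chr7:134276998-134277057, minus strand) gave the only call of a member on slide 2, with levels of -2.25 to -1.15 on 3'RR-deficient arrays, against -1.15 to -0.57 on wild-type arrays. It fell by 0.77 (SE 0.21, adjusted p 0.0429), and its slide 1 difference of 0.39 did not pass (adjusted p 0.207). No member was called on slide 2 in 10 of the 16 fits that left out 1 array: 3'RR-deficient arrays 9 and 12 and wild-type arrays 2 and 5 of slide 1, and 3'RR-deficient arrays 1, 2 and 4 and wild-type arrays 1, 3 and 5 of slide 2.

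Both Spn probes differed between the slides, by 1.49 (SE 0.23, adjusted p 0.00215) and by 1.16 (SE 0.30, adjusted p 0.0239). Over both slides they had differences of 0.22 (adjusted p 0.225) and -0.19 (adjusted p 0.436), neither past the threshold, and each is the mean of 2 slide differences of unlike sign.

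Cd5 encodes a scavenger receptor family protein that dampens antigen receptor signals and is carried by B-1a cells and T cells. Its probe (A_51_P167263, mm9 chr19:10792701-10792760, minus strand) had levels of 0.98, 1.17, 0.88 and 0.90 on 3'RR-deficient arrays 9 to 12, against 1.74, 1.08, 1.82 and 1.51 on wild-type arrays 2, 5, 6 and 8 of slide 1. Only wild-type array 5 lay within the range of the 3'RR-deficient arrays. Cd5 fell there by 0.56 (SE 0.15, 1.47-fold lower, adjusted p 0.0151 by limma), and the call was lost with slide 1 fitted alone (adjusted p 0.0847).

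On slide 2 Cd5 had levels of -0.70 to -0.32 on 3'RR-deficient arrays, against -0.78 to -0.54 on wild-type arrays, with overlap and a difference of 0.16 (SE 0.15, adjusted p 0.596). The slides differed by -0.71 (SE 0.21, adjusted p 0.035), a call that was lost in 12 of 16 fits that left out 1 array (adjusted p up to 0.0685), among them the fit without wild-type array 5 of slide 2 (adjusted p 0.0571). Over both slides the difference was -0.20 (SE 0.10, adjusted p 0.219).

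Ctla4 encodes an inhibitory receptor that competes with CD28 for CD80 and CD86 and is known from T cells and from mouse B-1a cells. Its probe (A_55_P2147712, mm9 chr1:60971801-60971860, plus strand) had levels of -2.74 to -1.79 on 3'RR-deficient arrays, against -4.04 to -1.88 on wild-type arrays of slide 1. Wild-type array 8 was the only one of 16 arrays where it was not well above background. On slide 2 the ranges were -0.64 to 0.03 on 3'RR-deficient arrays, against -0.90 to -0.45 on wild-type arrays. The differences of 0.70 (SE 0.42, adjusted p 0.242) and 0.28 (SE 0.42, adjusted p 0.77) were within the spread of the arrays by limma's test.

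Of the 7 genes listed around Ctla4, over both slides 1 rose and 2 fell, where 16.7% of all tested probes passed. Pdcd1, which encodes the inhibitory receptor PD-1, rose by 0.89 (SE 0.29, adjusted p 0.0476 by limma), a call that was lost in 14 of 16 fits without 1 array (0.0719 without wild-type array 5 of slide 2) and in 3 of 11 other settings. Cd80, a ligand of CD28 and CTLA4, fell by 0.68 (SE 0.14, adjusted p 0.00455), and Cd274, which encodes the PD-1 ligand PD-L1, fell by 0.58 (SE 0.13, adjusted p 0.0073). On slide 2 alone 4 of the 7 fell and none rose, with a median difference of -0.68, where 7.35% of all tested probes passed.

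Ptpn22 encodes a tyrosine phosphatase that works with the kinase Csk to dampen antigen receptor signals. Its probe (A_51_P483324, mm9 chr3:103716092-103716151, plus strand) had levels of 3.13 to 3.69 on 3'RR-deficient arrays, against 3.24 to 4.01 on wild-type arrays of slide 1. On slide 2 it had levels of 2.70 to 3.00 on 3'RR-deficient arrays, against 2.90 to 3.30 on wild-type arrays. The differences were -0.08 (adjusted p 0.76) and -0.31 (adjusted p 0.301), and the groups overlapped on both slides. Of 10 tested genes that signal with Ptpn22 and Cd5, 2 rose over both slides and none fell, near the share of all tested probes that passed (16.7%). They were the kinases Lck, by 0.33 (adjusted p 0.0146), and Syk, by 0.29 (adjusted p 0.0238). The Syk call was lost in 3 of 11 other settings and 2 of 16 fits without 1 array, and the Lck call in 2 of 11 other settings.

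Zcwpw1 encodes a reader of histone methylation that is known for its part in meiosis in mice, and it was the only member that fell over both slides. The sequence of its single probe is shown because the call rests on it alone, with no letters in capitals.
Zcwpw1 A_52_P154026, mm9 chr5:138253240-138253299, plus strand: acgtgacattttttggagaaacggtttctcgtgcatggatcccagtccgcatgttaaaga
Its levels on slide 1 were -1.28, -1.21, -1.11 and -0.97 on 3'RR-deficient arrays 9 to 12, against -0.15, -0.32, -0.65 and -0.52 on wild-type arrays 2, 5, 6 and 8. The groups did not overlap, and Zcwpw1 fell by 0.73 (SE 0.18, 1.66-fold lower, adjusted p 0.0123).

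On slide 2 Zcwpw1 had levels of -1.49, -0.69, -0.99 and -1.57 on 3'RR-deficient arrays, against -0.97, -0.65, -0.78 and -1.18 on wild-type arrays, with overlap and a difference of -0.29 (SE 0.18, adjusted p 0.402). The difference between the slides did not pass limma's test (-0.44, SE 0.26, adjusted p 0.278). Over both slides the difference was -0.51 (SE 0.13, adjusted p 0.016), with adjusted p up to 0.0363 over the 16 fits that left out 1 array.

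Ccdc28b encodes a coiled-coil protein linked to cilia and had 2 probes. Their genotype differences agreed in sign on each slide, but only the dimmer probe passed on slide 1. The brighter one (A_66_P102733, mm9 chr4:129296518-129296577, minus strand) had levels of 2.55 to 3.33 on 3'RR-deficient arrays, against 2.44 to 2.92 on wild-type arrays of slide 1, and a difference of 0.43 that did not pass (SE 0.16, adjusted p 0.0697). The dimmer one (A_55_P2160081, mm9 chr4:129297720-129297779, minus strand), designed on another transcript, had levels of -2.11, -1.66, -1.36 and -1.53 on 3'RR-deficient arrays 9 to 12, against -2.43, -2.62, -2.54 and -2.39 on wild-type arrays 2, 5, 6 and 8. These groups did not overlap, and the dimmer probe rose by 0.83 (SE 0.18, adjusted p 0.00525).

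On slide 2 the dimmer Ccdc28b probe had levels of -2.51 to -2.19 on 3'RR-deficient arrays, against -2.27 to -1.51 on wild-type arrays, a difference of -0.48 (SE 0.18, adjusted p 0.127). The slides differed by 1.31 (SE 0.25, adjusted p 0.00622) with it, and by 0.56 with the brighter probe, which did not pass (SE 0.23, adjusted p 0.119). Over both slides neither probe passed, with differences of 0.15 (adjusted p 0.414) for the brighter and 0.17 (adjusted p 0.393) for the dimmer one.

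Tppp3 encodes a member of the tubulin polymerization-promoting protein family. Its probe (A_51_P246924, mm9 chr8:107991755-107991814, minus strand) had levels of -2.60 to -1.97 on 3'RR-deficient arrays, against -3.45 to -2.37 on wild-type arrays of slide 1. The groups overlapped, and the difference of 0.62 (SE 0.21) lay just outside the threshold (adjusted p 0.0508). On slide 2 it had levels of -4.67 to -4.35 on 3'RR-deficient arrays, 3 of 4 of them well above background, against -4.36 to -3.99 on wild-type arrays, and a difference of -0.27 (SE 0.21, adjusted p 0.521). Over both slides it differed by 0.17 (adjusted p 0.488), and between the slides by 0.89 (SE 0.30, adjusted p 0.064).

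Each slide can also be read by whether the 4 arrays of one genotype lie wholly above or below those of the other. On slide 1 this held for 6 of the 13 probes, against 21.4% of all tested probes. Of these 6, 5 lay higher in 3'RR-deficient arrays and 1, that of Zcwpw1, lower. On slide 2 it held for 3 of 13, against 22.9% of all tested probes: Zbtb32 and Ahr were higher and the brighter Spn probe lower in 3'RR-deficient arrays.

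The genotype difference itself differed between the slides for 7 of the 13 probes (53.8%), against 13.8% of all tested probes. It was higher on slide 1 for 6 probes, of Zbtb32, Bhlhe41, Spn and the dimmer Ccdc28b probe, and lower for that of Cd5. The median of the slide 1 difference minus the slide 2 difference was 0.89 over the 13 probes and -0.08 over all probes. Among all calls in this comparison 36.8% were higher, and 53.4% were with quantile normalization and 26.5% with arrays scaled by their median. The members' 6 higher and 1 lower were the same counts with median scaling and 7 and 1 with quantile normalization.

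**Figure D2:**
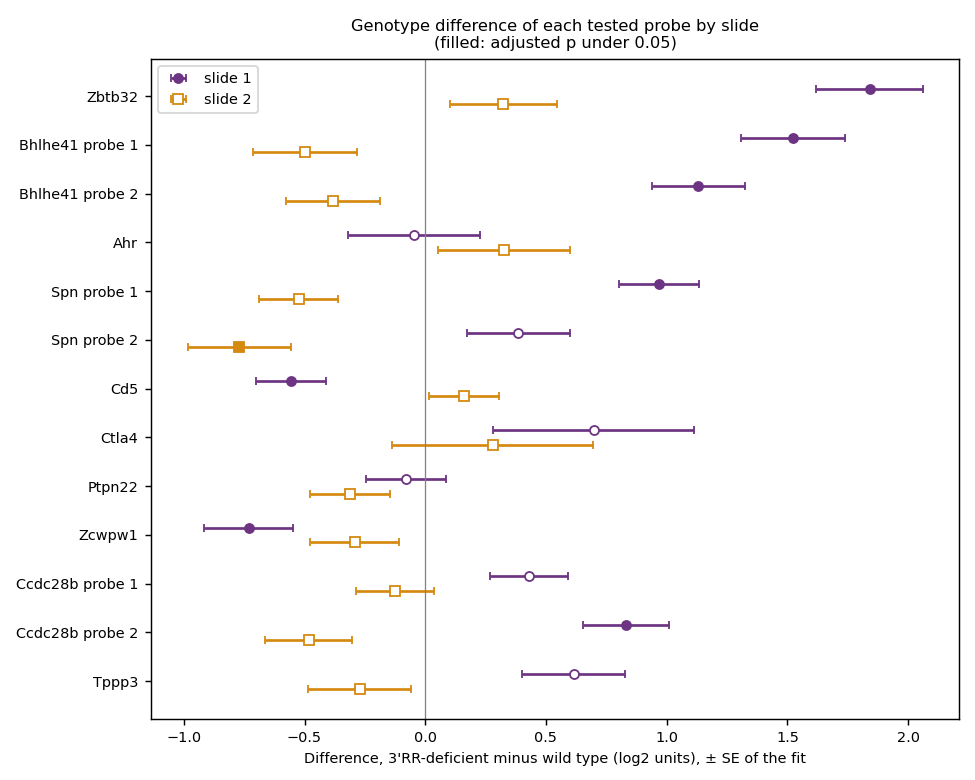
Difference in level between 3'RR-deficient and wild-type arrays for each tested probe (x axis, log2 units, ± SE of the fit), with slide 1 as circles and slide 2 as squares, filled where the adjusted p was under 0.05. On slide 1, 7 probes are filled and 5 of these lie to the right of 0, and on slide 2 the second Spn probe alone is filled.

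The slides themselves differed widely, and slide cannot be told apart from the set of samples on it, since the labels give no other difference between the sets. Of all tested probes, 81.3% passed for slide 1 against slide 2 over both genotypes, and 10 of the 13 probes of the B-1 cell genes (76.9%), 7 higher and 3 lower on slide 1. The members' median was 0.45 and that of all probes -0.34, which moved to 0.02 with arrays scaled by their median, to -0.13 with normexp background correction and to -0.15 with quantile normalization. The share of higher calls was 35.7%, and 51.2% with median scaling.

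Zbtb32 was the member with the largest gap between slides, with group means of 3.96 ± 0.45 and 2.12 ± 0.45 in 3'RR-deficient and wild-type arrays of slide 1 and 6.41 ± 0.09 and 6.09 ± 0.12 on slide 2 (SD, n = 4 each). It was 9.24-fold lower on slide 1 (-3.21, SE 0.16, adjusted p 9.08e-11 by limma). Ctla4 was 4.24-fold lower on slide 1 (-2.08, adjusted p 1.22e-05), and the brighter Ccdc28b probe 2.01-fold lower (adjusted p 1.23e-06). Higher on slide 1 were Tppp3 (1.86, adjusted p 2.72e-08), Cd5 (1.83, adjusted p 4.51e-10) and, by 0.79 with both probes, Spn. Ahr (0.55) and Ptpn22 (0.45) were also higher on slide 1, and the 2 Bhlhe41 probes disagreed in sign (0.65 and -0.28).

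Other genes that B-1 cells are known to express in larger amounts moved in both directions. Of 17 tested, over both slides 5 rose and 2 fell, with a median difference of 0.20, where 16.7% of all tested probes passed. Nt5e, which encodes the ectoenzyme CD73, rose by 2.10 (SE 0.36, adjusted p 0.00133) and passed on both slides. Bhlhe40, the close relative of Bhlhe41, rose by 0.73 (SE 0.18, adjusted p 0.0143), with differences of 0.28 on slide 1 (adjusted p 0.455) and 1.18 on slide 2 (adjusted p 0.012). Cd9, which encodes a tetraspanin of B-1, marginal zone and plasma cells, fell by 0.78 (SE 0.10, adjusted p 1.40e-04) and passed on both slides.

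Il5ra, the receptor for the cytokine IL-5 that supports B-1 cells, had differences of unlike sign on the 2 slides, as Spn and Bhlhe41 had. It differed by 0.66 on slide 1 (adjusted p 0.181), fell by 2.18 on slide 2 (adjusted p 0.00131), and the slides differed by 2.84 (SE 0.49, adjusted p 0.00362). Over both slides its difference of -0.76 was just past the threshold (adjusted p 0.0485), and this call was lost in 13 of 16 fits without 1 array (adjusted p 0.069 without wild-type array 5 of slide 2) and in 4 of 11 other settings. On slide 1 the list had 5 higher and 1 lower genes with a median of 0.46, and on slide 2 4 higher and 3 lower with a median of -0.18. Of all tested probes 23.0% passed on slide 1 and 7.35% on slide 2. The summed level of the 17 genes, in multiples of the 75th percentile, was 336 to 370 on 3'RR-deficient arrays, against 280 to 326 on wild-type arrays of slide 1. On slide 2 it was 144 to 172 on 3'RR-deficient arrays, against 183 to 209 on wild-type arrays. Such a sum is set by its brightest genes, and Il5ra alone averaged 16.3 and 67.9 on slide 2 in 3'RR-deficient and wild-type arrays. Without Il5ra, a setting chosen after seeing the data, the slide 2 sums were 132 to 145, against 118 to 143, so the opposite order on slide 2 rested on this gene.

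The summed level of 5 genes of follicular B-2 cells that are low in B-1 cells was 319 to 403 on 3'RR-deficient arrays, against 420 to 467 on wild-type arrays of slide 1. On slide 2 it was 102 to 144, against 77.7 to 92.3. This order was opposite to that of the other B-1 genes, which on slide 2 rested on Il5ra. Over both slides 1 of the 5 rose and 1 fell: the chemokine receptor gene Cxcr5 rose by 0.28 (adjusted p 0.00575), and Cr2, which encodes the complement receptor CD21, fell by 0.39 (adjusted p 0.0121). The Cr2 call was lost with slide as a random block (adjusted p 0.478). On slide 1, 1 fell and none rose (median -0.46), and on slide 2, 3 rose and none fell (median 0.48). The shares of all tested probes that passed were 16.7% over both slides, 23.0% on slide 1 and 7.35% on slide 2.

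Of 15 regulators of B-1 development, most of them antigen receptor signalling genes, 2 rose over both slides and none fell, with a median of -0.04. Of all tested probes 16.7% passed. Fcgr2b, the inhibitory Fc receptor, rose by 1.33 (adjusted p 1.73e-08). Its difference was 2.70 on slide 2 (adjusted p 7.42e-10) and -0.03 on slide 1 (adjusted p 0.87). Cd22, an inhibitory coreceptor, rose by 1.07 (SE 0.32, adjusted p 0.0358) with differences of 1.20 and 0.95 that did not pass on either slide alone. Its call over both slides was lost in 11 of 16 fits without 1 array (adjusted p 0.0568 without wild-type array 5 of slide 2) and with no filter on dim probes (adjusted p 0.0642). On slide 1, 4 of the 15 fell and none rose, where 23.0% of all probes passed and 13.9% fell. The summed level of the 15 genes was 981 to 1040 on 3'RR-deficient arrays, against 1110 to 1170 on wild-type arrays of slide 1. On slide 2 it was 572 to 584, against 506 to 530, the same order as for the B-2 genes.

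**Figure D3:**
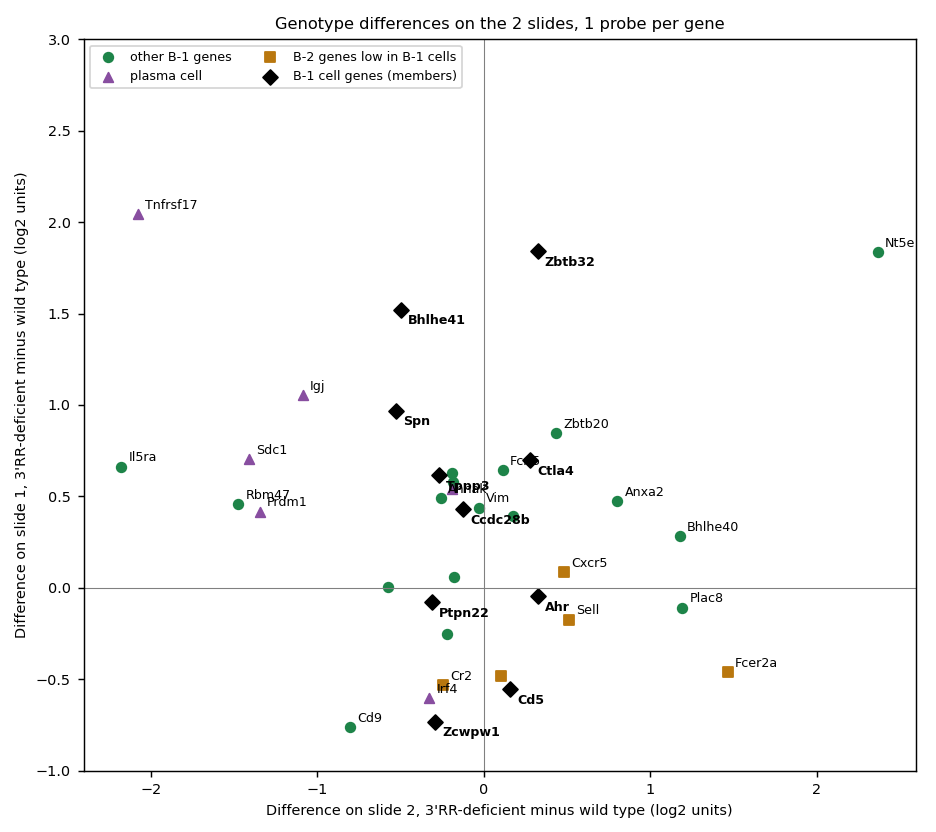
Genotype difference on slide 2 (x axis) and slide 1 (y axis), 3'RR-deficient minus wild type in log2 units, with 1 point per gene at its brightest tested probe for the B-1 cell genes, other B-1 genes, plasma cell genes and B-2 genes. Spn and Bhlhe41 lie at the upper left with Tnfrsf17, Igj, Sdc1, Prdm1 and Il5ra, Zbtb32 at the upper right with Nt5e, and Cd5 and Zcwpw1 below 0 on slide 1.

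Markers of other cells moved with the members in part. Spn and Zbtb32 are also expressed by plasma cells, and the median difference of the plasma cell list had the sign of Spn and Bhlhe41 on both slides. Of its 6 tested genes, 2 rose and 1 fell on slide 1 (median 0.62), none rose and 3 fell on slide 2 (median -1.22), and 4 of 6 were higher in the slide 1 difference minus the slide 2 difference. Of all tested probes 23.0%, 7.35% and 13.8% passed in these comparisons. The summed level was 282 to 566 on 3'RR-deficient arrays, against 175 to 280 on wild-type arrays of slide 1, and 176 to 234, against 237 to 323, on slide 2. The groups did not overlap on either slide. On slide 1 the joining chain gene Igj set much of that sum. It averaged 292 and 141 there in 3'RR-deficient and wild-type arrays, of mean sums of 394 and 223. On slide 2 it averaged 41.4 and 82.8, of mean sums of 209 and 279. Xbp1 weighed most on slide 2, at mean levels of 7.21 and 7.41. Without Igj, a setting chosen after seeing the data, the groups overlapped on both slides. The sums were then 79.5 to 147, against 68.9 to 94.4, on slide 1, and 154 to 192, against 173 to 223, on slide 2.

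Of the single plasma cell genes, Tnfrsf17, which encodes the survival receptor BCMA, rose by 2.05 on slide 1 (adjusted p 0.00225). On slide 2 it was well above background on no 3'RR-deficient array and on 4 of 4 wild-type arrays. With 3'RR-deficient values set no lower than their array's floor, it was at least 2.56-fold lower there. The fitted difference, which used the values below that floor, was -2.08 (adjusted p 0.00373 by limma). Igj, whose product joins the units of secreted IgM, rose by 1.05 on slide 1 (adjusted p 0.0293) and differed by -1.09 on slide 2 (adjusted p 0.0535). Irf4, a factor of plasma cell fate that B cells also express, fell on slide 1 by 0.60 (adjusted p 0.0128), against the direction of Tnfrsf17 and Igj there. It differed by -0.33 on slide 2 (adjusted p 0.232) and was the 1 gene of the list past the threshold over both slides (-0.47, adjusted p 0.00985). 3'RR-deficient array 10, the highest of its group for Zbtb32, Spn and both Bhlhe41 probes, also had the highest plasma cell sum, 566. Without that array the slide 1 calls of Zbtb32, Spn and Bhlhe41 held, as they did without any other 1 array (adjusted p up to 4.49e-04, 0.00462 and 0.00148). The plasma cell sums of the other 3'RR-deficient arrays of slide 1, 352, 282 and 375, still lay above every wild-type sum there. The part of plasma cell RNA in these differences was not tested.

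T cells also carry Cd5, Spn and Ctla4. The summed level of 17 T cell genes was 109 to 123 on 3'RR-deficient arrays, against 114 to 122 on wild-type arrays of slide 1, and 90.3 to 147, against 86.6 to 128, on slide 2, with overlap on both. The brightest gene, which weighs most in such a sum, was Cd2 on slide 1 and Thy1 on slide 2. Thy1 was the 1 gene of the list that passed as lower on slide 1 than on slide 2 (-4.66, adjusted p 3.71e-11 by limma). The slide 1 levels of 13 genes passed as higher. The sums therefore do not show how T cell RNA compared between the slides. Whether the slide 2 overlap holds without Thy1 was not tested. Over both slides 2 of the 17 passed as higher and 1 as lower, with a median of 0.06, near the share of all tested probes that passed (16.7%). Lck rose as given above, while Lat, an adaptor of the T cell receptor, fell by 0.55 (adjusted p 0.0139). The Lat call was lost with slide as a random block (adjusted p 0.0989). The other gene past the threshold was Cd3g, which was well above background on no array of slide 2 and had a slide 1 difference of 0.37 that did not pass (adjusted p 0.435). Its call was lost with dim arrays set at their floor (adjusted p 0.265). In each genotype there 4 of the 17 genes were above it on no array.

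Macrophage and granulocyte genes, a further source of Spn, had summed levels of 86.5 to 289 on 3'RR-deficient arrays, against 78.8 to 127 on wild-type arrays of slide 1. On slide 2 the sums were 10.8 to 13.2 on 3'RR-deficient arrays, against 11.3 or less on wild-type arrays, and in each genotype 3 of the 11 genes were well above background on no array. Of the 11 genes 2 rose over both slides and none fell, near the share of all tested probes that passed (16.7%), and 3 rose on slide 1, where 23.0% passed. Those over both slides were Lyz1, a lysozyme, by 1.17 (adjusted p 0.00726), and Ly6g, known as a neutrophil marker, by 1.01 (adjusted p 2.37e-05). The Lyz1 call was lost with slide as a random block (adjusted p 0.0838). The Ly6g probe was well above background on every array of slide 2, where S100a8 and S100a9 of the same list were so on none. The highest sum, 289, was that of 3'RR-deficient array 11, which had the lowest level of its group for Zbtb32, Spn and both Bhlhe41 probes. Of 6 NK cell genes none passed over both slides in either direction, and their summed level was 6.08 to 23.2 on 3'RR-deficient arrays, against 12.4 to 18.8 on wild-type arrays of slide 1, and 1.16 to 1.48, against 1.28 to 1.75, on slide 2. The part of these cells in the members' differences was not tested.

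**Figure D4:**
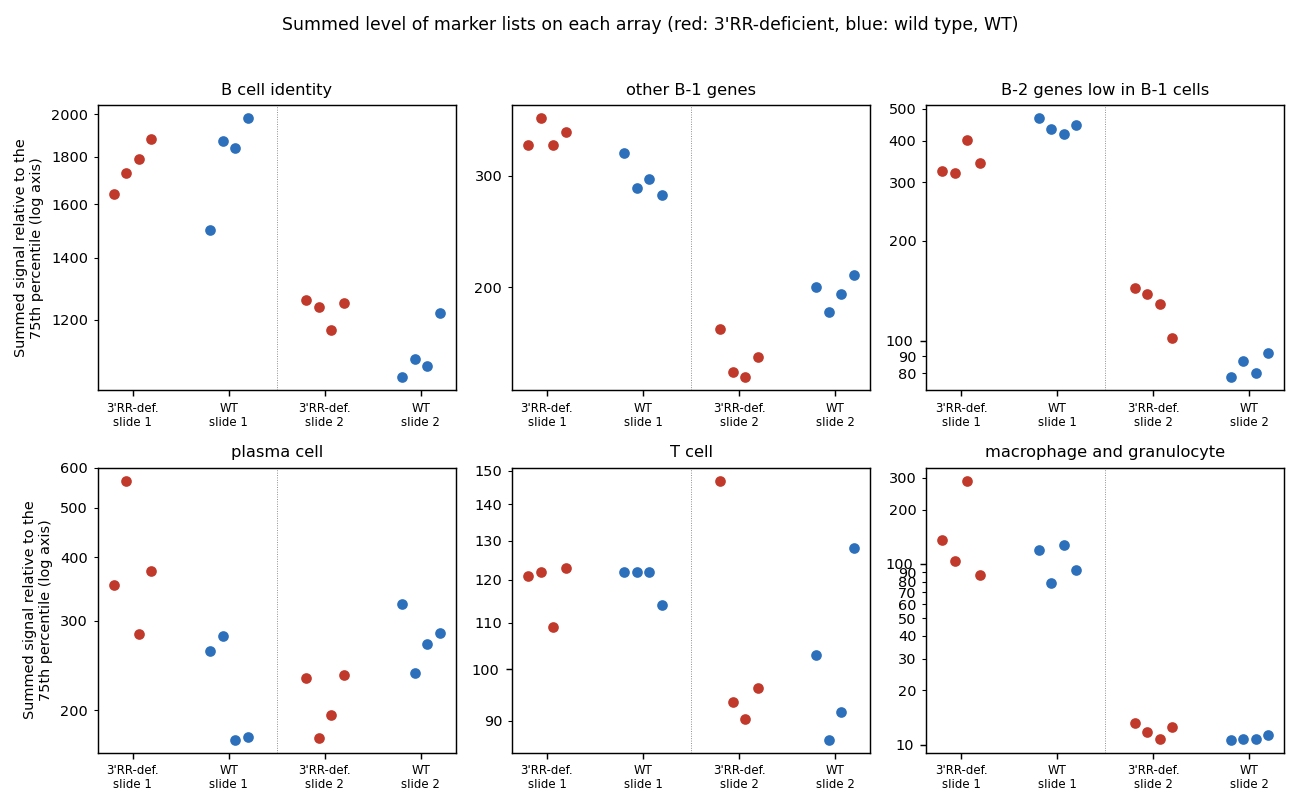
Summed level of the tested genes of 6 marker lists on each array, in multiples of the array's 75th percentile (y axis, log scale), by genotype and slide. Plasma cell, other B-1 and B-2 gene sums of 3'RR-deficient and wild-type arrays do not overlap on either slide, but single genes weigh much in such sums. The plasma cell sums overlap on both slides without Igj, and the slide 2 order of the other B-1 genes rests on Il5ra. Macrophage and granulocyte sums are 78.8 or more on slide 1 and 13.2 or less on slide 2.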

How the data were processed

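The intensity of each spot is the scanner output the authors deposited. Feature Extraction 10.7.3.1 produced it, per the file headers, background-subtracted and not normalized between arrays, with coordinates in mm9. The submitters' processing notes name limma, with no role. A table of log2 values, also deposited by the authors, had column medians of 5.58 to 5.6 on slide 1 and 6.49 to 6.5 on slide 2. How it was made is not stated in the labels or headers, and it served as an alternative within slides. Each hybridisation used 0.2 microgram of RNA with a RIN of 9 and Cy3 as its only dye, per the labels' protocols.

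Of 62976 spots per array, 3671 controls were left out. Spots flagged as non-uniform or as population outliers were left out. The other spots of 1 probe were averaged on the log2 scale, giving 55681 probes, and the log2 of the array's 75th percentile was subtracted. A probe was tested if it had a value on all 16 arrays and was well above background on 4 or more of them. This left 32753 probes of 22676 gene names. limma 3.58.1 (R 4.3.3) fitted 4 group means to all 16 arrays, with Benjamini-Hochberg adjustment over all tested probes and a threshold of 0.05. The fit was tested on simulated data. All members are named, a member by its brightest tested probe first. Of each other list, at most the 4 genes of largest difference past the threshold over both slides are named, and defining genes where they bear on a member. The members and the 11 lists were chosen with earlier results of these data known. Which exon or UTR a probe lies in was not used here. The number of arrays limits the precision of these signals.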

Additional observations from a re-analysis of the deposited data

Results flagged for a closer look

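In groups of 4 arrays, an array is listed here where its gap to the nearest other array, divided by the range of the group, was above Dixon's critical value for 4 values. Of 56 groups of 4 arrays, 3 were, and chance gives about 1 in 20. The brighter Bhlhe41 probe on wild-type array 5 of slide 2 had a ratio of 0.894, at a level of -1.30. The other Bhlhe41 probe had 0.833 on the same array, at -2.95, the lowest of its group. Ptpn22 had 0.877 on wild-type array 2 of slide 1, at 4.01.

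The difference between 3'RR-deficient and wild-type arrays was not the same on the 2 slides for 7 probes of 5 genes, by limma's test of the slide 1 difference minus the slide 2 difference. It was 2.02 (adjusted p 0.00179) and 1.51 (adjusted p 0.00456) for the Bhlhe41 probes, and 1.52 (adjusted p 0.0083) for Zbtb32. For the Spn probes it was 1.49 (adjusted p 0.00215) and 1.16 (adjusted p 0.0239). It was 1.31 (adjusted p 0.00622) for the dimmer Ccdc28b probe and -0.71 (adjusted p 0.035) for Cd5.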

How the results depend on the processing

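The count of member probes called on slide 2, 1 as reported, was 0 with arrays scaled by their median, with no filter on dim probes, with 1 probe per gene, with the authors' deposited value table and with the replicate block. In these settings 3.33% to 8.59% of all probes passed. It was 6, all lower, with array weights, where 25.1% of all probes passed, and 0 to 1 over the 16 fits without 1 array. With each slide fitted alone it was 1 higher, Zbtb32, in place of 1 lower, where 11.8% of all probes passed. The arrays numbered 1, 2 and 3 in both genotypes on slide 2 showed little shared deviation (correlations 0.0138, 0.0971 and 0.0624). This cannot tell whether samples of the same number were paired, and the labels do not say. The same 6 arrays without pairing, an alternative chosen after seeing the data, gave 2 of 13, where 10.5% of all probes passed. The count of probes whose difference differed between slides, 7, was 4 with 1 probe per gene, which tests 10 features in place of 13. Of all features 16% passed in that setting.

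With the other probe the slide 1 minus slide 2 value was -0.279 for Bhlhe41 and 0.063 for Ccdc28b, against the sign given by the brighter probe; the cause was not tested. The Bhlhe41 call over both slides was lost in 3 of 11 other settings (no filter, and slide as an additive or a random block, adjusted p up to 0.307) and in 9 of 16 fits without 1 array. Zbtb32 and Zcwpw1 kept their calls over both slides in all 11 settings and 16 such fits. The slide 1 call of Zcwpw1 was lost with array weights (adjusted p 0.0642). Tppp3 passed on slide 1 in 4 of 10 other settings and the brighter Ccdc28b probe in 2. Fits of each slide alone give no value over both slides. The share of higher calls over both slides was 46.3%, and 60.1% with median scaling, and on slide 2 it was 50.1% and 66.5%. What signal limits is the dimmest values: Ahr's other probe could not be tested, and Ctla4 and Tppp3 each had 1 array not well above background.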

Other observations

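The genes around the members on the chromosome were also looked at, since the genotypes differ in strain entry. Within 1 Mb of a member's probe, the share of other tested probes past the threshold over both slides ran from 6.32% for Tppp3, of 95 probes, to 28.1% for Cd5, of 57 probes. The share over all tested probes was 16.7%, with 7.71% higher and 8.95% lower. Around Zbtb32 it was 14.2% of 106 probes, 9 higher and 6 lower, and the neighbour with the largest increase was Cd22. Around Bhlhe41 it was 24.6% of 57 probes, 4 higher and 10 lower, and around Spn 9.73% of 185 probes.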
